A study of Mus musculus with 5 samples.

Results

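H3K27ac over the interferon response genes was compared between large intestinal Treg cells with and without intact Setd2. The set held 42 genes, a list, assembled by name, of genes known to be induced by interferon or to act in interferon signalling, out of 22020 annotated genes of the same classes. The rule used no value of these libraries, but the members were chosen with earlier results of these data known. Each gene was given the peaks that overlapped its annotated span or lay within 3 kb of its start, and the counts of those peaks were summed. A peak was found for 40 of the 42 genes, and 39 had enough counts to be tested (at least 10 counts in at least 2 libraries).

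The measurement was CUT&Tag, in which an antibody brings a transposase to a histone mark and the DNA beside the mark is cut and sequenced. H3K27ac, acetylated lysine 27 of histone H3, marks active promoters and enhancers. Setd2 is the enzyme that trimethylates lysine 36 of the same histone over transcribed genes. The comparison asked how H3K27ac differed when both Setd2 alleles, rather than 1, were open to deletion in Treg cells. Ctrl mice were Foxp3Cre Setd2flox/+ and KO mice were Foxp3Cre Setd2flox/flox, so every animal carried the Cre and at least 1 floxed Setd2 allele, and Cre was driven from the locus of Foxp3, the gene that defines Treg cells. All mice were C57BL/6, 2 weeks of age and at steady state, with females and males pooled, and each library came from cells sorted by the Foxp3-linked YFP and pooled over several littermates. There were 2 libraries per genotype. An IgG control library was not analysed here.

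Type I interferons bind a receptor made of Ifnar1 and Ifnar2, whose kinases Jak1 and Tyk2 phosphorylate Stat2. With Irf9 it is part of a complex that binds the interferon-stimulated response element in the promoters of antiviral genes, while interferon gamma acts through the gamma-activated site and through induced Irf1. In T cells the same genes carry a resting level of activity that rises on exposure to interferon, and Socs1 and Usp18 limit the response.

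Depth in peaks ranged from 2395002 to 4712473 counts per library. Values are given as CPM, counts scaled to a common library size after TMM (edgeR's correction for composition) and multiplied by the same constant in every library. All 8 Treg and T cell markers examined, Foxp3 and Cd4 among them, had peaks, and their summed level was 2770 and 3160 CPM in Ctrl and 3260 and 3960 CPM in KO. Of the genes of other lineages, Cd8a, Ms4a1, Lyz2, Itgam, Adgre1, Ncr1, Eomes, Krt18 and Krt20 had no peak, while others did. Of the epithelial list 4 of 7 genes had peaks, with a sum of 43.4 to 69.3 CPM, and of the B cell list 4 of 5, with 188 to 277 CPM, most of it at Cd79a. The myeloid list (4 of 7) summed to 656 to 745 CPM, mostly at Cx3cr1, and the plasmacytoid dendritic cell list (3 of 4) to 313 to 489 CPM, mostly at Runx2, both of which T cells can also use. Of the other myeloid genes, Spi1 lay at 90.9 to 131 CPM and Cd68 at 38.9 to 55.1 CPM. Per kb of peak, Cd79a, Cd68 and Spi1 had 17.6, 15.5 and 13.5 CPM. The Treg and T cell markers ran from 11.8 (Ikzf2) to 29.3 CPM per kb (Tnfrsf18). The part of other cells in these values was not tested. The NK cell and ILC list (1 of 3) lay at 13.7 to 23.8 CPM and the CD8 list (1 of 2) at 6.25 to 11.3 CPM. Setd2 itself carried 51.6 and 84.2 CPM in Ctrl and 45.8 and 65.4 CPM in KO, a log2 fold change of -0.29 (SE 0.32, adjusted p of 1 in edgeR). H3K27ac does not show whether the floxed exons were deleted, so the genotypes rest on the labels. In bulk libraries such as these, fewer cells with the mark and less mark per cell cannot be told apart.

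The response element shows where the interferon complex can bind, so the promoters of members were searched for it. The letters searched were GAAANNGAAA, on both strands (TTTCNNTTTC on the other), in the RefSeq promoters of GRCm38.p6, from 250 bases before to 50 bases after each start. They were present in 1131 of 32851 promoters (3.44%). Of the 42 genes 32 were in that table with 40 promoters, and 20 of these promoters, belonging to 19 genes, held a match. The letters TTCNNNGAA of the gamma-activated site are their own reverse complement. They were in 8.3% of all promoters, and 9.55% of all genes in that table had a promoter with them. Of the 32 genes 11 had such a promoter, and 6 genes had matches of both kinds. Neither match says that a factor was bound. The following stretches are shown because each lies inside an H3K27ac peak described below, with the matched letters in capitals. Adjacent matches overlap, and each stretch is written 5′ to 3′ on the strand of its gene.
Irgm2 (chr11:58214873-58214932, plus strand): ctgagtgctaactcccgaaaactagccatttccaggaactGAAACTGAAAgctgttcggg
Igtp (chr11:58199482-58199541, plus strand): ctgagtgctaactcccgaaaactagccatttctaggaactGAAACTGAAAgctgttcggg
Irgm1 (chr11:48871425-48871490, minus strand): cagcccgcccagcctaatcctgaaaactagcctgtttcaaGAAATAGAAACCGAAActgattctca
Gbp3 (chr3:142559959-142560024, plus strand): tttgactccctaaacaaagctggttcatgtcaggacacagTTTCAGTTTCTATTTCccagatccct
Gbp2 (chr3:142620564-142620623, plus strand): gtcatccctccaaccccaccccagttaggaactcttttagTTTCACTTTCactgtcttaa
Socs1 (chr16:10785594-10785659, minus strand): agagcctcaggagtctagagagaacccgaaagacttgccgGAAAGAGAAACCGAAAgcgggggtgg
Oas3 (chr5:120777715-120777774, minus strand): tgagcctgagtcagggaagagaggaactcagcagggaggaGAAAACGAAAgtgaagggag

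The stretches of Irgm2 and Igtp were identical at 59 of 60 bases, although they lie in separate peaks. In Gbp3 and Gbp2 the element runs on the opposite strand, and in Socs1, Irgm1 and Gbp3 a pair of overlapping matches was found.

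Interferon response genes carried more H3K27ac than most genes. Their median level was 84 CPM against 41.5 CPM over the 13501 genes tested, and 29 of 39 lay above the middle of all genes. Counted per kb of peak, so that genes could be set beside each other, the median was 12.4 CPM per kb against 10.2, with 30 of 39 above the middle. Socs1, the feedback inhibitor of Jak kinases, was the densest at 21.6 CPM per kb (percentile 97.7). Irgm1, a GTPase of immunity to intracellular pathogens, followed at 21.1 CPM per kb (percentile 97.4). Iigp1, a GTPase of the same family, was the least dense of the tested genes at 5.67 CPM per kb (percentile 6.1). The peaks of members had a median width of 696 bp, against 477 bp over all peaks. All peaks include those far from genes, while member peaks lie in genes or near starts, so these widths are not like for like. The widest, 10015 bp, covered the whole of Socs1.

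**Figure D1:**
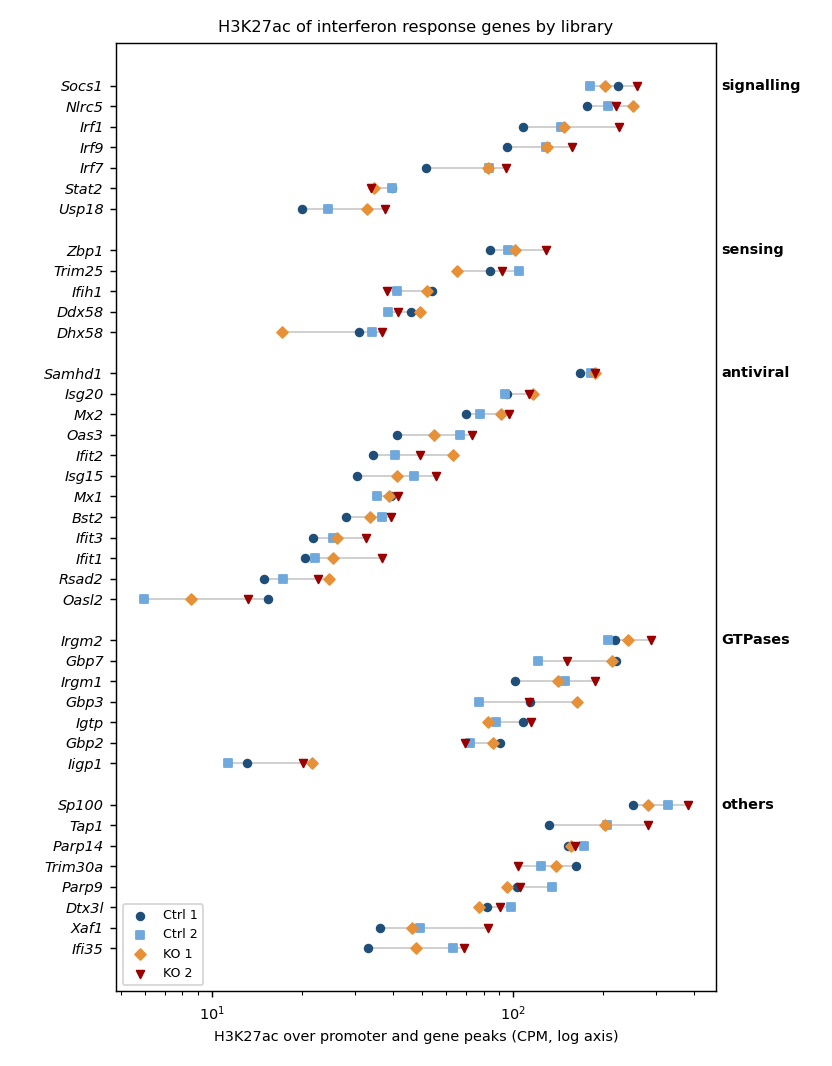
H3K27ac of the 39 tested interferon response genes in each of the 4 libraries, in CPM on a log axis, grouped by role and ordered by mean level, with a grey line spanning the 4 libraries. Levels ran from a mean of 10.8 CPM at Oasl2 to 310 CPM at Sp100, and the points of KO 2 lie furthest right in 22 of the 39 rows.

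No interferon response gene differed between KO and Ctrl at an adjusted p under 0.05 in edgeR's quasi-likelihood test with genotype as the only term. Over all 13501 genes the test called 0 (0%) at that threshold. At an unadjusted p under 0.05 it called 95 genes higher (0.704%) and 273 lower (2.02%), none of them a member, and the lowest unadjusted p of a member was 0.0614, at Usp18. The fitted log2 fold changes of the members, KO minus Ctrl, had a median of 0.265 (range -0.26 to 0.77), while the median of all genes was -0.0024. They were above 0 for 30 of the 39 members (76.9%), where 49.7% of all genes were. In 14 members (35.9%) both KO libraries exceeded both Ctrl libraries, an arrangement seen in 13.7% of all genes. In 1 member, Stat2 (2.56%), both KO libraries were below both Ctrl libraries, against 16.5% of all genes. These counts describe the list and carry no test. With 2 libraries per genotype the smallest two-sided exact permutation p of a single value is 0.333.

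**Figure D2:**
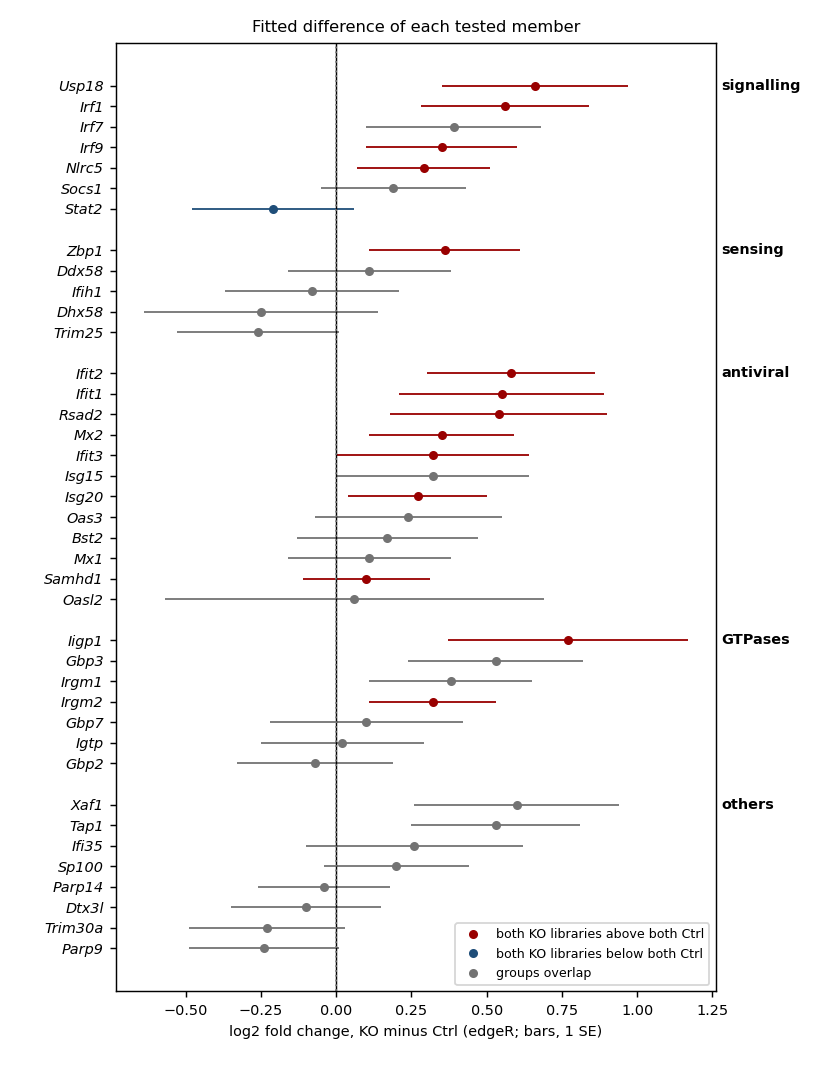
Fitted log2 fold change (KO minus Ctrl) of each tested interferon response gene with 1 SE, grouped by role and coloured by whether the libraries of the genotypes overlapped. All 12 antiviral effectors lie to the right of 0, the nucleic acid sensing genes lie on both sides, and the SE bars of many members cross 0.

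Libraries of the same genotype also differed from each other, beside the difference between genotypes. Relative to each gene's own mean on the log2(CPM + 1) scale, the median member was at -0.246 and -0.062 in the Ctrl libraries and at 0 and 0.24 in the KO libraries (libraries 1 and 2 in that order), while the medians of all genes lay between -0.014 and 0.014. From Ctrl to KO this median rose from -0.246 to 0 between the libraries numbered 1, and from -0.062 to 0.24 between those numbered 2. The labels do not say what a number marks. Ctrl 1 was the lowest library for 21 of the 39 members and KO 2 the highest for 22. Ctrl 1 was also the shallowest library and KO 2 the deepest. Ctrl 2 (3630447 counts) was deeper than KO 1 (3007444 counts), though, unlike the order of the member medians. The summed Treg and T cell markers had the same order of libraries as those medians, but the single markers were divided. Ctrl 2 was below KO 1 at Il2ra, Ctla4, Ikzf2 and Cd3e. It was above KO 1 at Foxp3 (294 and 290 CPM), Tnfrsf18 (267 and 260 CPM), Cd3d (244 and 181 CPM) and Cd4 (192 and 136 CPM). The part of depth or of T cell content in the difference was not tested. Leaving out KO 2 lowered the median log2 fold change of the members to 0.127 and leaving out Ctrl 1 to 0.177, while without Ctrl 2 it was 0.384 and without KO 1 0.359.

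**Figure D3:**
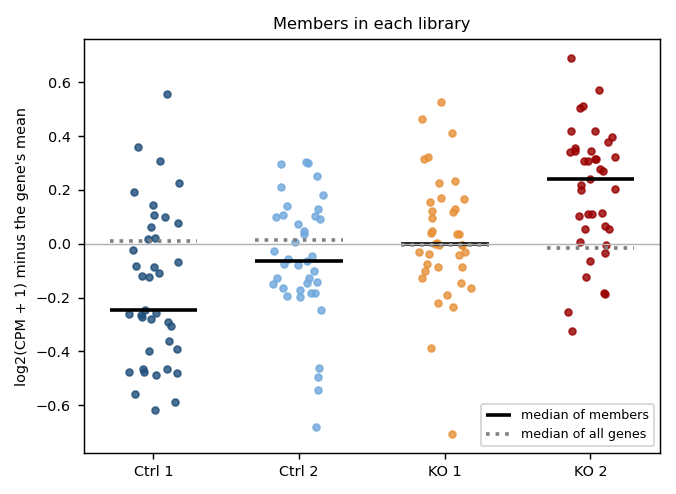
Deviation of each of the 39 tested members from its own mean, on the log2(CPM + 1) scale, in each library, with the median of the members (black) and of all genes (dotted). The members' medians run from -0.246 in Ctrl 1 to 0.24 in KO 2, with Ctrl 2 and KO 1 between them at -0.062 and 0.

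The most strongly marked genes of any function had values slightly above 0. Among all tested genes the median log2 fold change was 0.14 in the top decile of mean CPM, which held 7 members with a median of 0.202. In the next decile it was 0.00708 for all genes and 0.348 for its 9 members. In the sixth decile the 6 members had a median of 0.293 against -0.0288 for all genes, and in the eighth 6 members had -0.0215 against -0.0272. With an offset that removed the trend on abundance, the median of the members was 0.227.

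**Figure D4:**
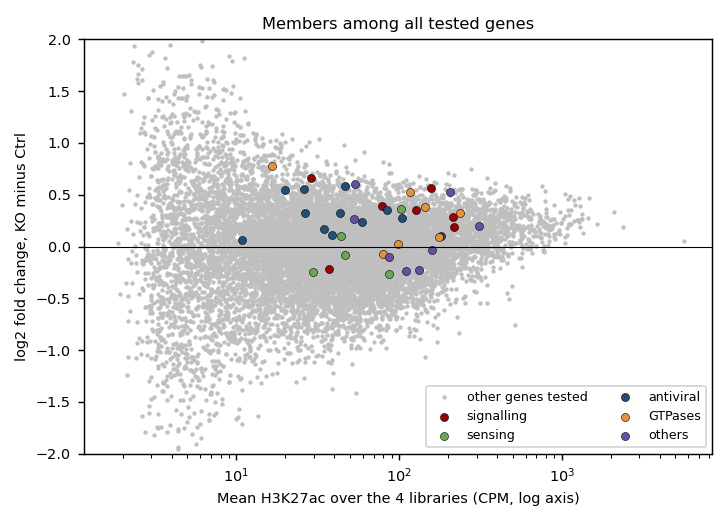
Log2 fold change (KO minus Ctrl) against mean CPM on a log axis for all tested genes (grey) and for the members, coloured by role. The vertical axis ends at 2 in both directions and leaves 46 other genes outside, and the members lie within the cloud of all genes, with 30 of 39 above 0.

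Signalling factors and feedback regulators were mostly higher in KO by fitted value, with none called. Of 7 tested, 6 had a log2 fold change above 0, with a median of 0.348, and both KO libraries exceeded both Ctrl libraries in 4 (57.1%, against 13.7% of all genes). Irf1, the transcription factor induced by interferon gamma, measured 108 and 145 CPM in Ctrl and 148 and 225 CPM in KO. The groups did not overlap, but KO 1 was barely above Ctrl 2 and KO 2 stood highest. Between libraries of the same number, KO was above Ctrl for both numbers. The log2 fold change was 0.56 (SE 0.28, unadjusted p = 0.0785, adjusted p = 1 in edgeR), and it was 0.22 without KO 2 and 0.83 without KO 1. Irf9, the DNA-binding subunit of the type I complex, measured 95.9 and 129 CPM in Ctrl and 130 and 157 CPM in KO. KO 1 and Ctrl 2 were again almost level, and the log2 fold change was 0.35 (SE 0.25). Its peak over the start also served Rnf31, so its counts are not those of Irf9 alone. Nlrc5, the transactivator of MHC class I genes, measured 177 and 208 CPM in Ctrl and 250 and 221 CPM in KO. Here KO 1 was the highest library, and the log2 fold change was 0.29 (SE 0.22). Socs1 measured 224 and 181 CPM in Ctrl and 202 and 259 CPM in KO. The groups overlapped, the log2 fold change was 0.19 (SE 0.24), and without KO 2 it was -0.00255.

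Usp18, a protease that removes Isg15 from proteins and blocks the type I receptor, had the lowest unadjusted p of the members. It measured 19.9 and 24.4 CPM in Ctrl and 32.8 and 37.6 CPM in KO, from 44 to 157 counts per library. Both KO libraries were above both Ctrl libraries, and the log2 fold change was 0.66 (SE 0.31), between 0.53 and 0.82 with any 1 library left out. Irf7, the factor that amplifies type I interferon production, measured 51.6 and 83.6 CPM in Ctrl and 83.1 and 94.9 CPM in KO. Only Ctrl 1 stood apart there, and without it the log2 fold change fell from 0.39 to 0.09. Stat2 was the single member with both KO libraries lowest, at 39.8 and 39.6 CPM in Ctrl and 34.7 and 33.8 CPM in KO. Its log2 fold change was -0.21 (SE 0.27), while that of its promoter peaks alone was 0.15.

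Antiviral effectors were all on the higher side in KO by fitted value. Of the 15 listed, 12 could be tested, and all 12 had a log2 fold change above 0 (0.06 to 0.58, median 0.295), and in 7 (58.3%) KO lay wholly above Ctrl, against 13.7% of all genes. None passed the adjusted threshold. Of these 12, Oas3, Oasl2 and Bst2 changed sign when 1 library was left out. Oas1a and Ifitm3 had no peak in these libraries, and Oas2 was too sparse to test, with 17 and 2 counts for the Ctrl libraries and 4 and 7 for the KO libraries. Samhd1, which depletes nucleotides for viral reverse transcription, was the most marked at 167 and 182 CPM in Ctrl and 187 and 188 CPM in KO. The KO libraries were just above Ctrl, and the log2 fold change was 0.10 (SE 0.21). Isg20, an exonuclease that degrades viral RNA, measured 95.9 and 94.6 CPM in Ctrl and 117 and 113 CPM in KO. Its replicates were close to each other and the groups were apart, with a log2 fold change of 0.27 (SE 0.23, unadjusted p = 0.267). The test gave it a variance of 0.573 where its own was 0.00577, since edgeR shared the spread across genes. Mx2, a GTPase of the antiviral Mx family that is annotated here as a polymorphic pseudogene, measured 70.1 and 77.7 CPM in Ctrl and 91.3 and 97.0 CPM in KO. The groups did not overlap, and the log2 fold change was 0.35 (SE 0.24). Oas3, which makes the second messenger that activates RNase L, measured 41.2 and 67.0 CPM in Ctrl and 54.8 and 73.3 CPM in KO. The groups overlapped, the log2 fold change was 0.24 (SE 0.31), and it was -0.06 without Ctrl 1.

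The Ifit genes, whose proteins bind foreign RNA, lie together on chromosome 19. Ifit2 measured 34.4 and 40.5 CPM in Ctrl and 63.3 and 49.4 CPM in KO. Ifit1 measured 20.4 and 22.0 CPM in Ctrl and 25.3 and 36.7 CPM in KO. Ifit3 measured 21.7 and 25.3 CPM in Ctrl and 26.1 and 32.6 CPM in KO. In all 3 both KO libraries were above both Ctrl libraries, with KO 1 highest at Ifit2 and KO 2 highest at the other two. The log2 fold changes were 0.58 (SE 0.28), 0.55 (SE 0.34) and 0.32 (SE 0.32) in that order. Rsad2, which encodes the antiviral protein viperin, measured 14.9 and 17.3 CPM in Ctrl and 24.6 and 22.5 CPM in KO, and its log2 fold change was 0.54 (SE 0.36). Its counts, 33 to 94 per library, limit the precision. Isg15, the ubiquitin-like modifier, measured 30.3 and 47.0 CPM in Ctrl and 41.4 and 55.6 CPM in KO, with overlapping groups, a log2 fold change of 0.32 (SE 0.32) and all 4 of its peaks shared with other genes such as Agrn.

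Interferon-inducible GTPases, which attack the membranes around intracellular pathogens, spread more widely. Of 7 tested, 6 had a log2 fold change above 0, with a median of 0.319, and in 2 (28.6%, against 13.7% of all genes), Iigp1 and Irgm2, both KO libraries exceeded both Ctrl libraries. Irgm2 measured 218 and 207 CPM in Ctrl and 242 and 287 CPM in KO, a log2 fold change of 0.32 (SE 0.21). Igtp, its neighbour, measured 108 and 87.8 CPM in Ctrl and 82.7 and 115 CPM in KO. For Igtp KO 1 was the lowest library and KO 2 the highest, and the log2 fold change was 0.02 (SE 0.27). All 4 peaks of Igtp overlapped the span or lay near the start of Irgm2 as well and were counted for both. Irgm1 measured 102 and 149 CPM in Ctrl and 141 and 187 CPM in KO, with KO 1 just below Ctrl 2 and a log2 fold change of 0.38 (SE 0.27). Iigp1 measured 13.1 and 11.3 CPM in Ctrl and 21.6 and 20.1 CPM in KO, from 29 to 84 counts per library. It had the largest log2 fold change of the members, 0.77 (SE 0.40, unadjusted p = 0.0865, adjusted p = 1 in edgeR), and 0.67 to 0.88 with any 1 library left out.

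The guanylate-binding proteins of chromosome 3, which coat the vacuoles of pathogens, were higher in library 1 than in library 2 of both genotypes. Gbp3 measured 114 and 77.4 CPM in Ctrl and 164 and 113 CPM in KO. Ctrl 1 was level with KO 2, and the log2 fold change was 0.53 (SE 0.29), or 0.27 without Ctrl 2 and 0.24 without KO 1. Gbp7 measured 220 and 121 CPM in Ctrl and 213 and 151 CPM in KO. The groups overlapped, and the log2 fold change was 0.10 (SE 0.32), or -0.28 without Ctrl 2 and -0.17 without KO 1. Gbp2 measured 90.5 and 72.3 CPM in Ctrl and 86.1 and 69.2 CPM in KO, with overlapping groups and a log2 fold change of -0.07 (SE 0.26).

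Genes of nucleic acid sensing were divided. Of 5 tested, 2 had a log2 fold change above 0 and the median was -0.0793. Zbp1, the sensor of Z-form nucleic acid, measured 84.1 and 96.4 CPM in Ctrl and 102 and 129 CPM in KO. It was the only one of the 5 whose groups did not overlap (20%), and its log2 fold change was 0.36 (SE 0.25). Of all genes, 13.7% had both KO libraries above both Ctrl libraries and 16.5% had both below. Trim25, the ubiquitin ligase that activates RIG-I, measured 84.1 and 105 CPM in Ctrl and 65.2 and 92.5 CPM in KO. KO 2 lay between the Ctrl libraries, and the log2 fold change was -0.26 (SE 0.27), the lowest of the members, although its promoter peaks alone gave 0.11. Ddx58, the gene of RIG-I, measured 46.1 and 38.4 CPM in Ctrl and 49.2 and 41.7 CPM in KO. Ifih1, the gene of MDA5, which senses long double-stranded RNA, measured 53.8 and 41.4 CPM in Ctrl and 51.8 and 38.3 CPM in KO. In both genes the groups overlapped, the log2 fold changes were 0.11 (SE 0.27) and -0.08 (SE 0.29), and both changed sign when 1 library was left out. Dhx58, the gene of LGP2, measured 30.8 and 34.2 CPM in Ctrl and 17.1 and 36.9 CPM in KO, and its log2 fold change of -0.25 (SE 0.39) became 0.18 without KO 1.

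Among the 8 other members, 4 had a log2 fold change above 0, and the groups overlapped in all 8. The groups overlapped in 9424 of the 13501 genes tested. Sp100, a nuclear body protein, had the highest level of the list at 250 and 327 CPM in Ctrl and 281 and 383 CPM in KO. Within each genotype the second library was higher, the log2 fold change was 0.20 (SE 0.24), and it was -0.04 without KO 2. Tap1, a subunit of the transporter that loads peptides for MHC class I, measured 132 and 205 CPM in Ctrl and 203 and 282 CPM in KO. KO 1 was level with Ctrl 2, and the log2 fold change was 0.53 (SE 0.28, unadjusted p = 0.0967), or 0.25 without Ctrl 1 and 0.27 without KO 2. Of its 6 peaks 4 were shared with the immunoproteasome genes Psmb8 and Psmb9. Parp14, an ADP-ribosyltransferase, measured 153 and 172 CPM in Ctrl and 156 and 161 CPM in KO, with both KO libraries between the Ctrl libraries and a log2 fold change of -0.04 (SE 0.22). Trim30a, a regulator of Toll-like receptor signalling, measured 162 and 124 CPM in Ctrl and 139 and 104 CPM in KO, and its log2 fold change was -0.23 (SE 0.26). Parp9 and Dtx3l, partners in an ADP-ribosylating ubiquitin ligase complex, share 2 promoter peaks and had log2 fold changes of -0.24 (SE 0.25) and -0.10 (SE 0.25). Xaf1, a pro-apoptotic gene, measured 36.2 and 49.1 CPM in Ctrl and 46.2 and 83.1 CPM in KO. Its log2 fold change of 0.60 (SE 0.34) fell to 0.11 without KO 2, although KO was above Ctrl between libraries of the same number. Ifi35 measured 33.0 and 63.4 CPM in Ctrl and 47.7 and 68.8 CPM in KO, and its log2 fold change of 0.26 (SE 0.36) was -0.12 without Ctrl 1.

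Peaks were shared with another gene by 15 members. The 24 tested members that shared none had a median log2 fold change of 0.252, with 20 above 0 and both KO libraries above both Ctrl libraries in 9 (37.5%, against 13.7% of all genes).

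At the level of single peaks, 199 peaks belonged to members and 150 were tested, among 74550 tested of 124158 in all. None of the 150 was called at an adjusted p under 0.05, where 1 of all tested peaks (0.00134%) was. At an unadjusted p under 0.05, 6 were higher in KO, where 1.45% of all peaks were, and 2 were lower, where 2.79% were. Both KO libraries exceeded both Ctrl libraries in 45 of the 150, against 16.9% of all peaks, and lay below them in 19, against 16.4%. Peaks over the start of a member were mostly higher in KO by fitted value. Of 35 tested, 31 had a log2 fold change above 0 (median 0.306) and both KO libraries were above both Ctrl libraries in 13 and below in 0. Of the 84 tested peaks away from promoters, 49 were above 0 and 35 below, with both KO libraries above in 23 and below in 16. The matching shares for start peaks and distal peaks of all genes are not given here. With promoter peaks alone the median of all genes was also above 0, as given in the closing section. The split between start and distal peaks is therefore not shown to be particular to members.

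The 6 peaks with an unadjusted p under 0.05 and a higher value in KO lay at Irf1, Gbp3, Irgm2, Xaf1, Tap1 and Nlrc5, and all had an adjusted p of 0.998 in edgeR. The peak over the start of Irf1 (chr11:53768453-53777220, mm10, running 7206 bp into the gene) measured 100 and 137 CPM in Ctrl and 139 and 212 CPM in KO, a log2 fold change of 0.56 (SE 0.26, unadjusted p = 0.0342). The peak over the start of Gbp3 (chr3:142557139-142563361), which holds the paired response element printed above, measured 101 and 73.2 CPM in Ctrl and 155 and 103 CPM in KO, a log2 fold change of 0.56 (SE 0.28, unadjusted p = 0.041). In both, 1 KO library was only 2 CPM from the higher Ctrl library.

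The peaks counted for Irgm2 took in both a broad inner peak and the peak at the Igtp start. The broad peak inside Irgm2 (chr11:58208775-58218563) covers the RefSeq start of Irgm2 at 58214977 and the response element printed above. The GENCODE span of the gene begins instead at 58199618, beside the start of Igtp. That internal peak measured 106 and 109 CPM in Ctrl and 154 and 165 CPM in KO. Both KO libraries stood well above both Ctrl libraries, with a log2 fold change of 0.57 (SE 0.27, unadjusted p = 0.0331, adjusted p = 0.998 in edgeR). The peak at the Igtp start (chr11:58198004-58202358), with the nearly identical element, measured 81.0 and 75 CPM in Ctrl and 68.9 and 97.3 CPM in KO. There the groups overlapped and the log2 fold change was 0.10 (SE 0.29). The difference between these peaks was not tested.

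The peak at the 3′ end of Tap1 (chr17:34196192-34199378), which also covers part of Psmb8, measured 46.1 and 67.0 CPM in Ctrl and 75.3 and 101 CPM in KO, a log2 fold change of 0.64 (SE 0.29, unadjusted p = 0.0283). The peak over the Tap1 start, shared with Psmb9, measured 63.3 and 102 CPM in Ctrl and 90.2 and 128 CPM in KO, with overlapping groups and a log2 fold change of 0.39 (SE 0.28). An intronic peak of Nlrc5 (chr8:94441111-94443426) measured 12.7 and 14 CPM in Ctrl and 28.3 and 20.4 CPM in KO, a log2 fold change of 0.85 (SE 0.41, unadjusted p = 0.0374). At Xaf1 the single peak (chr11:72300243-72303574) is the gene value given above, with an unadjusted p of 0.0487 as a peak and 0.113 as a gene, because the spread was estimated separately for peaks and genes.

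Both peaks that were lower in KO lay inside genes and were weak. A peak over an exon of Parp9 (chr16:35955518-35956998) measured 7.69 and 15.2 CPM in Ctrl and 4.47 and 4.31 CPM in KO, a log2 fold change of -1.40 (SE 0.58, unadjusted p = 0.0166). A peak over an exon of Sp100 (chr1:85664914-85666335) measured 9.95 and 10.4 CPM in Ctrl and 2.98 and 5.75 CPM in KO, a log2 fold change of -1.18 (SE 0.60, unadjusted p = 0.0491). They held between 8 and 51 counts per library, and both had an adjusted p of 0.998 in edgeR. The stronger of the 2 promoter peaks shared by Parp9 and Dtx3l, over both starts, measured 74.2 and 89.6 CPM in Ctrl and 73.0 and 84.1 CPM in KO, a log2 fold change of -0.06 (SE 0.29).

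**Figure D5:**
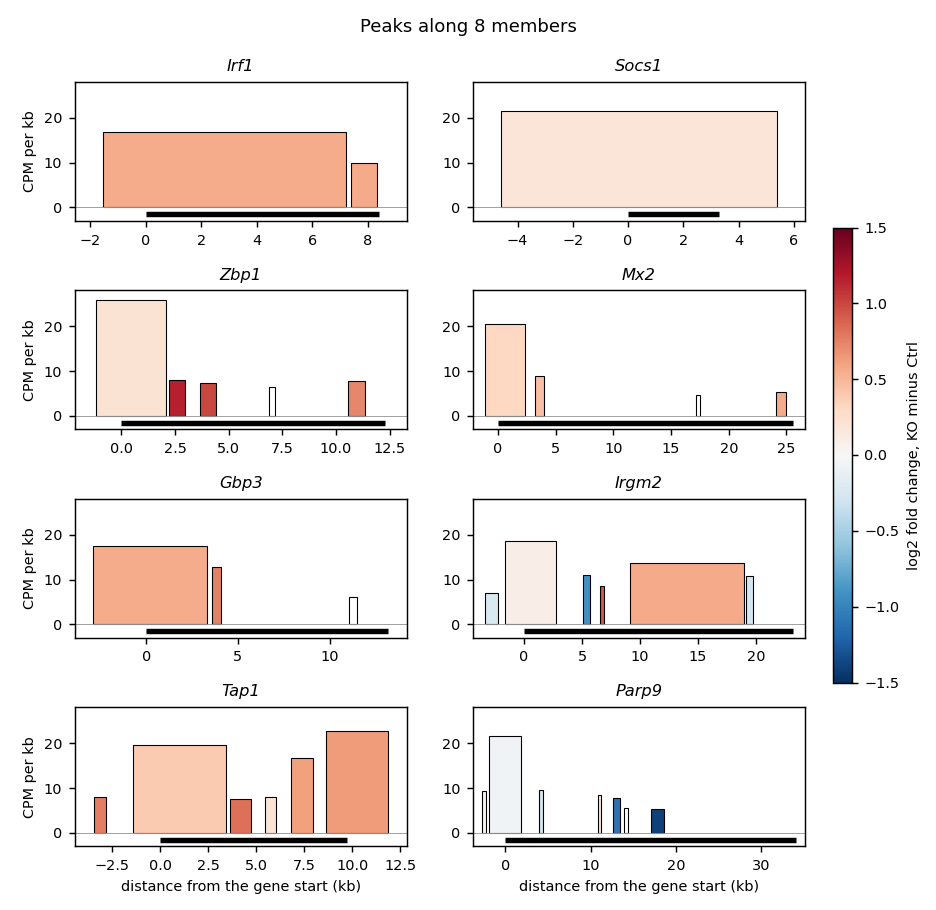
Peaks of 8 members drawn by distance from the annotated gene start in kb (black bar, the gene), with height as CPM per kb of peak averaged over the 4 libraries and colour as log2 fold change, KO minus Ctrl (white with an outline, too few counts to test). The peaks over the starts of Irf1 and Gbp3 and the inner peak of Irgm2 have log2 fold changes of 0.56, 0.56 and 0.57, and the weak inner peaks of Parp9 reach -1.40.

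Over the other starts, Zbp1 had the densest peak of the list at 25.9 CPM per kb, with 71.9 and 82.4 CPM in Ctrl and 79.0 and 100 CPM in KO and overlapping groups. The start of Isg20 (24.5 CPM per kb) measured 72.4 and 70.5 CPM in Ctrl and 89.4 and 87.2 CPM in KO, and that of Mx2 (20.4 CPM per kb) 60.2 and 67.6 CPM in Ctrl and 70.4 and 87.7 CPM in KO. In both, the groups did not overlap. Their log2 fold changes were both 0.31 (SE 0.29). The start of Irgm1, with the paired element, measured 93.7 and 140 CPM in Ctrl and 131 and 175 CPM in KO, with KO 1 below Ctrl 2. The start of Oas3 measured 39.4 and 63.4 CPM in Ctrl and 54.0 and 71.6 CPM in KO, and that of Gbp2 measured 83.2 and 60.1 CPM in Ctrl and 70.8 and 60.4 CPM in KO, with overlapping groups at both.

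Members were then set side by side by whether their promoter held the response element, with no test. Of the 17 tested with a match, 13 had a log2 fold change above 0 and the median was 0.19 (range -0.23 to 0.55). Of the 13 tested without one in the table, 11 were above 0 and the median was 0.27 (range -0.26 to 0.60). The 9 tested members that were not in the promoter table had a median of 0.29.

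Other genes of the pathway, 61 receptors, kinases, factors, adaptors and further interferon-stimulated genes, were examined in the same fit. Of the 56 tested, none was called at an adjusted p under 0.05 or had an unadjusted p under 0.05, 40 had a log2 fold change above 0 (71.4%, against 49.7% of all genes) and 16 below, and the median was 0.144. Both KO libraries exceeded both Ctrl libraries in 9 (16.1%, against 13.7% of all genes) and were below in 2 (3.57%, against 16.5%). Ifi204, Ifi44, Ifitm1, Oas1g and the cGAS gene, listed as Mb21d1, had no peak. The 7 receptors and kinases were all above 0 (0.06 to 0.30). Jak1, which serves both interferon receptors, was the most marked at 522 and 649 CPM in Ctrl and 650 and 762 CPM in KO, with KO 1 just above Ctrl 2 and a log2 fold change of 0.27 (SE 0.19). Irf2, a repressor of many of these promoters, measured 380 and 375 CPM in Ctrl and 349 and 429 CPM in KO, with overlapping groups and a log2 fold change of 0.05 (SE 0.20). Of the 4 adaptors tested, 3 were below 0. Tbk1, the kinase that activates Irf3, measured 181 and 223 CPM in Ctrl and 135 and 148 CPM in KO, with both KO libraries below both Ctrl libraries and a log2 fold change of -0.51 (SE 0.23, unadjusted p = 0.052, adjusted p = 1 in edgeR). Gbp8, the most marked of the further interferon-stimulated genes, measured 348 and 291 CPM in Ctrl and 349 and 342 CPM in KO, with overlapping groups and a log2 fold change of 0.11 (SE 0.20).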

How the data were processed

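H3K27ac CUT&Tag was measured in 4 libraries. Per the study's methods and labels, the authors aligned reads with Bowtie2 to mm10, called peaks with MACS2 and merged them with bedtools. Tool versions are not given in the sources used here. The deposited values are counts of reads in each merged peak, not normalized. Peaks called on the compared libraries depend on their signal.

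Peaks were placed on GENCODE M21 genes, protein-coding (21938) and, departing from the planned design so that Mx2 could be tested, polymorphic pseudogenes (82). KO was compared with Ctrl by edgeR 4.0.16 in R 4.3.3 (quasi-likelihood, TMM factors from tested peaks, Benjamini-Hochberg adjustment over all tested genes or peaks). The prior degrees of freedom were 6.57 for genes and infinite for peaks, so the spread of a peak came from the trend. SE was derived from the log2 fold change and F. The p-values measure the spread between pooled libraries. Chi-square per degree of freedom for pairs of libraries was 4.46 to 16.0, and all 4 libraries were kept. It was lowest for Ctrl 1 with KO 1 (4.46) and next lowest for Ctrl 2 with KO 2 (8.28). Libraries of the same genotype differed more, at 9.43 in Ctrl and 11.9 in KO. The main fit did not use the replicate number, and the fit that did is given in the closing section. The code was tested on simulated counts.

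Members and lists were chosen with earlier results of these data known. Values per library are given for the 4 most marked members of each role, any with an unadjusted p under 0.05, those not testable, and all member peaks with an unadjusted p under 0.05. Further genes and peaks were named after their values were seen. Alternatives were DESeq2 1.42.0, other scalings, count minimums, peak assignments, halved counts, the replicate number as a block and leaving out each library.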

Additional observations from a re-analysis of the deposited data

How the results depend on the processing

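There were 2 libraries per genotype, and in the main fit no gene came near the adjusted threshold. The list's counts and medians are descriptions, and the direction of single members is often uncertain. Of the 39 tested members 23 had the same sign of log2 fold change in all 15 alternatives that gave a value (21 higher, 2 lower) and 16 changed sign in at least 1. Between 27 and 33 members were above 0 in every alternative, and their median log2 fold change lay between 0.127 and 0.384. The adjusted counts of members and of all genes stayed at 0 except with the replicate number as a block. Causes were not tested.

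For peaks of members at an unadjusted p under 0.05, DESeq2 gave 1 higher and 0 lower, total counts as library size 1 higher, the loess offset on abundance 1 higher and 1 lower, and a minimum of 50 counts in 2 libraries 3 higher and 0 lower. Genes higher at that level numbered 56 with DESeq2 and 50 with total counts, and genes lower numbered 53 with promoter peaks alone. The median log2 fold change of all genes was -0.0585 with total counts, 0.00383 with the loess offset, 0.00628 without a count minimum, -0.0158 with each peak given to the nearest start and 0.068 with promoter peaks alone. With promoter peaks alone Parp14 was at 0.14 and Trim25 at 0.11.

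Leaving out each library gave 1 to 4 members, 162 to 279 genes and 3 to 10 member peaks higher at an unadjusted p under 0.05, 169 to 370 genes and 1 to 5 member peaks lower, and a median of all genes from -0.043 to 0.021. The lone library of a genotype was then taken to vary like the other group. Log2 fold changes ran from -0.06 to 0.64 for Oas3, -0.28 to 0.58 for Gbp7, -0.31 to 0.13 for Ifih1, -0.03 to 0.24 for Ddx58, -0.12 to 0.05 for Parp14, -0.04 to 0.41 for Sp100 and -0.00255 to 0.36 for Socs1.

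The labels give both genotypes replicates 1 and 2 but not what a number marks, and there are only 2 pairs. Deviations of Ctrl 1 and KO 1 from their group means had r = 0.479 across 13501 genes, which are not independent. With the replicate number as a block, 445 genes were higher and 476 lower at an adjusted p under 0.05 in edgeR. Both directions together, that was 6.82% of genes. Of the 39 tested members 3 were called, all higher: Tap1 (adjusted p = 0.00109), Irf1 (adjusted p = 0.00239) and Gbp3 (adjusted p = 0.0105). At an unadjusted p under 0.05 the block gave 16 of the 39 members, 1243 genes and 19 member peaks higher, and 1307 genes and 5 member peaks lower. The genes made up 18.9% of all tested, both directions together. Tap1, Irf1 and Gbp3 had log2 fold changes of 0.53, 0.55 and 0.53 with the block.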
